A study of Nematostella vectensis with 4 samples.

Results

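The genes described here are the DNA replication and mitosis genes of the starlet sea anemone Nematostella vectensis, taken as every gene model whose deposited name belongs to a fixed set of protein families. The set covers the origin recognition complex, CDC6 and the MCM helicase, PCNA and DNA polymerases alpha and delta, ribonucleotide reductase and thymidylate synthase. It also covers cyclins A, B and E with CDK1, CDK2 and CKS1, condensin SMC subunits and topoisomerase II, centromere, kinetochore and checkpoint proteins, polo-like and aurora kinases, and kinesins of the KIF11 and KIF20 to KIF29 families with DLGP5. The rule found 90 members among 25734 gene models, and it used names alone, no measured value. The names are entry names of proteins, mostly of other species, so each is a pointer to a protein family, and what the sea anemone gene does was not tested. The 90 members use 75 names, and 25 members share a name with another member, so each gene is given with its model identifier (NVE number).

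The data are 4 droplet libraries of single cells, 1 for every dissected tissue (tentacle, mesentery, pharynx and body wall), from sub-adult polyps aged 5 months. Neither a genotype nor the number of animals pooled is given in the sources used here, and no treatment is named. Since every tissue has a single library, replicate error is unknown, tissues were compared without any test, and a tissue cannot be told apart from its library. The mesenteries are the internal folds of the body cavity that carry digestive gland cells, muscle and gonad, and the pharynx is the tube from the mouth into that cavity.

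A cell that divides first loads the MCM helicase onto replication origins with the origin recognition complex and CDC6, a step called licensing. The helicase then opens the DNA, PCNA clamps the polymerases onto it, and ribonucleotide reductase and thymidylate synthase supply the nucleotides. At mitosis, CDK1 with cyclin B drives condensin to compact the chromosomes, kinetochore proteins attach them to the spindle, and the checkpoint holds back CDC20 until all are attached. These roles are known from yeast, flies and vertebrates. Transcripts of many of these genes come and go with the phases of the cell cycle, so cells that hold several of them may be dividing. Not every member need follow the cycle in these tissues, and division itself was not measured. In a tissue sum, fewer dividing cells and less of the RNA per cell cannot be told apart.

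Cells were taken as barcodes with at least 300 UMIs (unique molecular identifiers, each counting 1 captured RNA molecule). There were 1299 tentacle, 1357 mesentery, 2804 pharynx and 1652 body wall cells, with 1843444, 1563722, 2755343 and 2003883 UMIs in the same order and medians of 703, 542, 563 and 766 UMIs per cell. The depth per cell was low and differed between libraries. Among the 7112 cells, 44 carried 1 of 22 barcode sequences found in more than 1 library. Some marker lists differed widely between tissues. In tentacle 4 stinging-cell genes summed to 10370 CPM (UMIs of the gene per 1000000 UMIs of the library), and to 355 to 1729 CPM elsewhere. In mesentery 38 digestive gland genes summed to 20963 CPM, and to 453 to 3765 CPM elsewhere. In body wall 110 epidermis genes summed to 5143 CPM, and to 1074 to 2700 CPM elsewhere. A list of 23 muscle genes was highest in tentacle at 7168 CPM, against 4830 to 5106 CPM elsewhere. The lists were chosen with earlier results of these data known, so their levels do not check the tissue labels. All intervals below are exact 95% intervals (Poisson for CPM and its ratios, Clopper-Pearson for shares) and cover counting error only. A ratio against a tissue with 0 UMIs uses a floor of 3 UMIs per library and is a lower bound. CPM compares 1 gene between tissues or clusters, and it does not compare the abundance of different genes.

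The members were rare. They summed to 3667 of 8166392 UMIs. Of the 90, 75 had at least 1 UMI, and 22 had at least 50 UMIs and held 2715 of the member UMIs. A further 35 had 10 to 49 UMIs and 18 had 1 to 9. The 15 members with 0 UMIs in all cells, a count that allows up to 0.367 CPM each, included MCM6_HUMAN (NVE23333), TOP2A_MOUSE (NVE25917), KIF11_MOUSE (NVE1514) and CCNA_PATVU (NVE22927), which are named here after their counts were seen. Those named here belong to families that dividing cells of other animals use throughout. Another model named CCNA_PATVU (NVE3187) had 13 UMIs, so a model with 0 UMIs does not show that its family was absent.

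Summed over all members, tentacle stood at 536.5 CPM (504 to 571), pharynx at 501 CPM (475 to 528), mesentery at 446 CPM (414 to 481) and body wall at 299 CPM (275 to 324). Tentacle was 1.79 times body wall (1.62 to 1.99), while the intervals of tentacle and pharynx overlapped. The order among the upper 3 tissues rested on a few genes. Without KIF28_MOUSE (NVE7309), PCNA_XENLA (NVE26120), CENPE_HUMAN (NVE2099) and PLK1_MOUSE (NVE11158), 4 members chosen after their values were seen, the sums were 365 CPM in pharynx, 360.0 CPM in mesentery, 338.5 CPM in tentacle and 249 CPM in body wall. Body wall stayed lowest. A further set of sums left out 9 members, sorted by name into families with main roles outside division (CENPJ, CENPV and several kinesins). That sorting was not tested. These sums were 499 CPM in tentacle, 381 CPM in mesentery, 376 CPM in pharynx and 270.0 CPM in body wall.

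The share of cells with at least 1 member UMI was 34.8% in tentacle (452 of 1299 cells, 32.2 to 37.5%), 24.5% in pharynx (22.9 to 26.1%), 19.4% in body wall (17.5 to 21.4%) and 18.6% in mesentery (16.5 to 20.7%). These shares depend on depth. With every cell thinned to 300 UMIs they were 14.7% in tentacle, 12.1% in pharynx, 8.03% in mesentery and 7.87% in body wall, and no cell was left out. A member UMI alone does not mark a dividing cell. Muscle-like and digestive gland-like clusters were assumed to hold no dividing cells and were used as background. Among 194 cells of a muscle-like cluster (cluster 14, median 1100 UMIs), 24.7% held a member UMI, and 6.19% did so after thinning. Whether such UMIs were free RNA or the cells' own was not tested. Of 50 digestive gland-like cells (cluster 26, median 666 UMIs), 13 held a member UMI, and 7 did so after thinning. The interval after thinning was 5.82 to 26.7% for these digestive gland-like cells and holds the thinned shares of all 4 tissues. In the other muscle-like cluster (cluster 10, 411 cells, 281 of them from body wall, median 490 UMIs) 37 cells held one, and 4.14% did so after thinning (2.43 to 6.54%), below that of every tissue. The 3 clusters thus gave no single background level, cluster 14 held no body wall cell and cluster 26 neither a tentacle nor a body wall cell. The share of cells with a member UMI was therefore not read as a share of dividing cells in any tissue. Cells with at least 5 different members were rarer. There were 0 of 194 in cluster 14, which by a floor of 3 cells allows a share of up to 1.55% (exact upper bound 1.88%), and 0 of 411 in cluster 10 (exact upper bound 0.894%). There were 0 of 50 in cluster 26, whose exact upper bound of 7.11% lies above all 4 tissues, and 99 of all 7112 cells, with 45 more at 4 members. They made up 1.77% of tentacle, 1.62% of mesentery, 1.39% of pharynx and 0.908% of body wall cells, with intervals that all overlapped (1.13 to 2.64%, 1.02 to 2.44%, 0.991 to 1.90% and 0.509 to 1.49% in the same order). These shares depend on depth too, as the 99 cells had a median of 1906 UMIs, against 603 over all cells. Of the 22 in mesentery, 14 were in cluster 24, described below. After thinning to 300 UMIs, cells with at least 3 members were counted. They made up 0.924% of tentacle (0.478 to 1.61%), 0.820% of pharynx (0.521 to 1.23%), 0.295% of mesentery (0.0804 to 0.753%) and 0.242% of body wall (0.0660 to 0.619%).

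**Figure D1:**
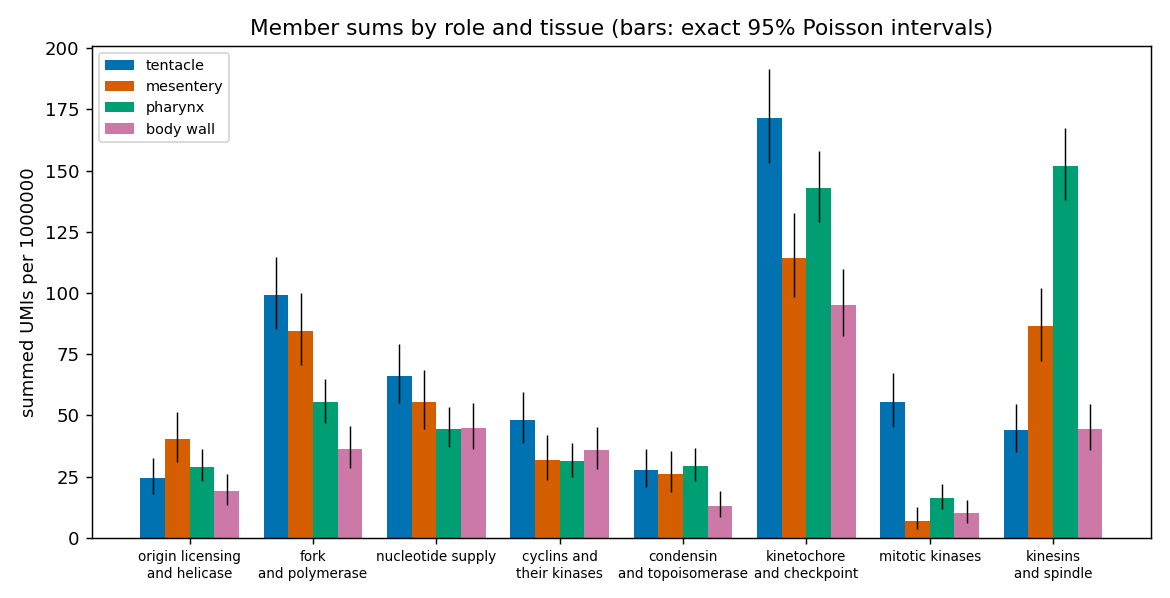
Summed CPM of the members of each role (vertical axis, from 0) in tentacle, mesentery, pharynx and body wall, 1 library each; lines are exact 95% Poisson intervals. The mitotic kinases stand out in tentacle at 55.3 CPM and the kinesins in pharynx at 152 CPM, and body wall is lowest in 4 of the 8 roles.

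The role groups did not share 1 order of tissues. Licensing and helicase genes were highest in mesentery at 40.3 CPM, then 29.0 CPM in pharynx, 24.4 CPM in tentacle and 19.0 CPM in body wall, 2.12 times between the ends (1.40 to 3.27). Fork and polymerase genes were highest in tentacle at 99.3 CPM, then 84.4 CPM in mesentery, 55.5 CPM in pharynx and 36.4 CPM in body wall (2.72 times, 2.07 to 3.63). So the genes that prepare and copy DNA were low in body wall in both groups. Condensin and topoisomerase genes had 29.4 CPM in pharynx, 27.7 CPM in tentacle, 26.2 CPM in mesentery and 13.0 CPM in body wall (2.27 times, 1.44 to 3.67). Kinetochore and checkpoint genes had 171 CPM in tentacle, 143 CPM in pharynx, 114 CPM in mesentery and 95.3 CPM in body wall (1.80 times, 1.50 to 2.16). Cyclins with their kinases spread less, at 48.3 CPM in tentacle, 35.9 CPM in body wall, 32.0 CPM in mesentery and 31.2 CPM in pharynx (1.55 times, 1.14 to 2.11). Nucleotide supply genes spread least, at 66.2 CPM in tentacle, 55.6 CPM in mesentery, 44.9 CPM in body wall and 44.6 CPM in pharynx (1.48 times, 1.14 to 1.92). Mitotic kinases and kinesins had the widest spreads, 7.87 times in tentacle over mesentery (4.22 to 16.3) and 3.46 times in pharynx over tentacle (2.72 to 4.45), and both rested largely on a few genes described next.

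Gene by gene, 13 of the 22 members with at least 50 UMIs (59.1%) were at least 2 times higher in their highest than in their lowest tissue, against 69.8% of the 8222 genes of any kind with at least 50 UMIs. That order of the shares depended on the minimum: with at least 100 UMIs per gene 9 of 10 members passed, against 66.8% of all genes, and among barcodes with at least 500 UMIs 15 of 20 did, against 71.0%. The difference between members and other genes was not tested. Against the mean of the other 3 tissues, 9 of the 22 were at most 0.5 times as high in body wall (40.9%, against 26.9% of all genes) and 0 were at least 2 times as high there (11.2% of all genes). In tentacle 4 were at least 2 times as high (18.2%, against 15.5% of all genes), in pharynx 2 (9.09% against 12.1%) and in mesentery 1 (4.55% against 7.22%). On the log2 scale, after adding 10 CPM, the median member differed from the mean of the other tissues by -0.29 in body wall, 0.12 in tentacle, 0.08 in pharynx and 0.01 in mesentery, beside -0.16, -0.06, -0.07 and -0.09 for all genes in the same order. In any tissue, 11 of the 22 passed in either direction, against 58.1% of all genes. For 8 of the 22 the interval of the highest over the lowest tissue included 1.

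**Figure D2:**
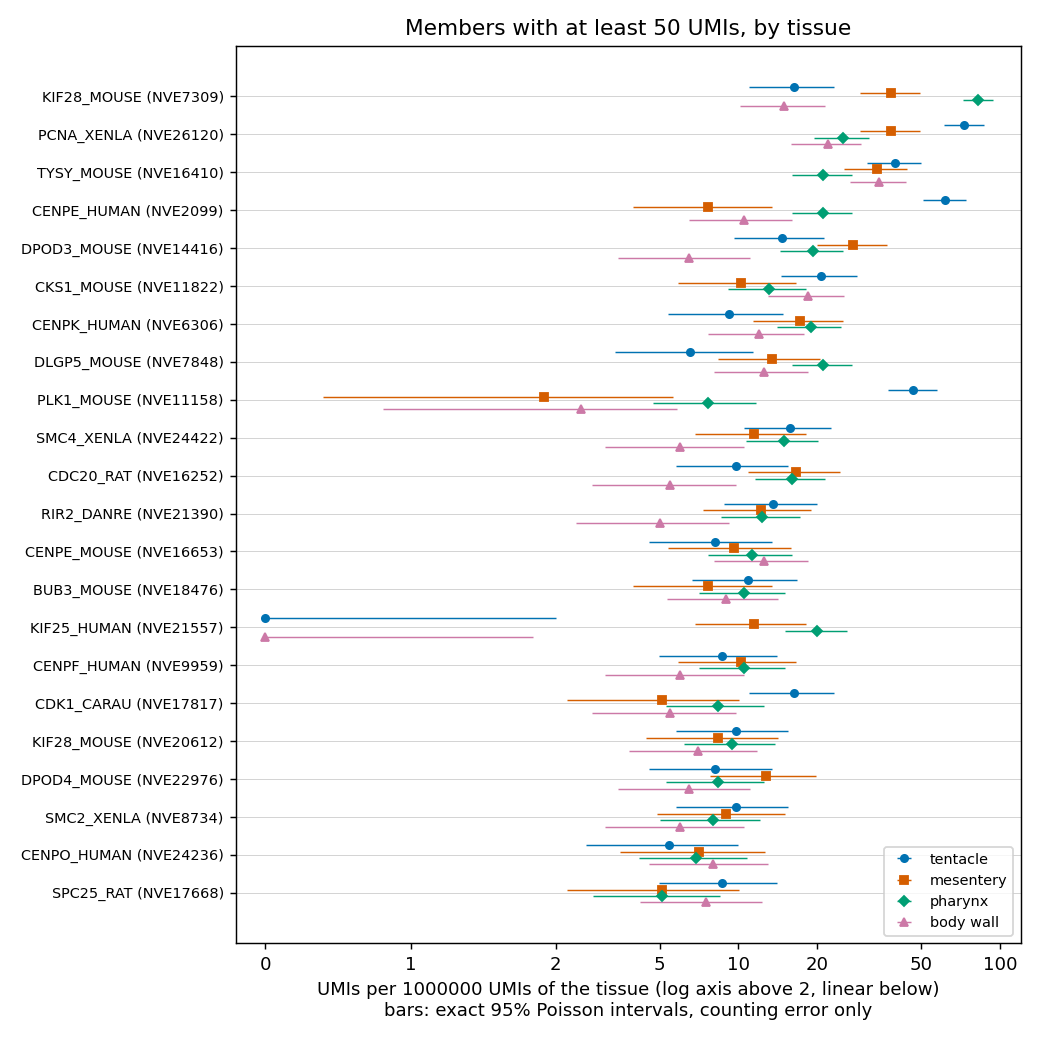
CPM of the 22 members with at least 50 UMIs (horizontal axis, log scale above 2 CPM and linear below) in each of the 4 libraries, with exact 95% Poisson intervals. Most members sit between 5 and 20 CPM, and for 8 of the 22 the interval of the highest over the lowest tissue included 1. Furthest right are KIF28_MOUSE (NVE7309) in pharynx at 82.7 CPM and PCNA_XENLA (NVE26120) in tentacle at 73.2 CPM. CENPE_HUMAN (NVE2099) and PLK1_MOUSE (NVE11158) follow in tentacle, at 61.8 and 46.7 CPM.

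Among the licensing genes none reached 50 UMIs. MCM4_XENTR (NVE9586), a subunit of the replicative helicase, had 9.59 CPM in mesentery, 5.08 in pharynx, 4.88 in tentacle and 4.49 in body wall (47 UMIs). MCM7_XENTR (NVE3145), another subunit, had 8.95 CPM in mesentery, 5.97 in tentacle, 3.27 in pharynx and 2.50 in body wall (39 UMIs, 3.59 times between the ends, 1.22 to 12.7). Both were highest in mesentery, and MCM4_XENTR overlapped between all tissues. The other 12 licensing genes had 0 to 38 UMIs. The largest of them, CDC6_HUMAN (NVE12898), singled out after its values were seen, is named for the factor that loads the helicase. Its 38 UMIs were spread as 10.2 CPM in pharynx, 2.56 in mesentery, 2.17 in tentacle and 0.998 in body wall, and 26 of them fell in cluster 25, with 70 of 81 cells from pharynx, where all licensing genes together had 28 UMIs.

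At the fork, PCNA_XENLA (NVE26120), the sliding clamp, had 73.2 CPM in tentacle, 38.4 in mesentery, 25.04 in pharynx and 21.96 in body wall, 3.34 times between the ends (2.36 to 4.80). Its tentacle level lay above the other 3 tissues without overlap, 1.91 times mesentery (1.40 to 2.63). DPOD3_MOUSE (NVE14416), a subunit of polymerase delta, was led by mesentery instead, with 27.5 CPM there, 19.2 in pharynx, 14.7 in tentacle and 6.49 in body wall (4.24 times, 2.24 to 8.59). DPOD4_MOUSE (NVE22976), another delta subunit, had 12.8 CPM in mesentery, 8.35 in pharynx, 8.14 in tentacle and 6.49 in body wall, all within counting error. The other 5 fork genes had 0 to 8 UMIs, led by DPOA2_HUMAN (NVE23172) with 8 and DPOD2_HUMAN (NVE2869) with 7. For nucleotide supply, TYSY_MOUSE (NVE16410), thymidylate synthase, was the flattest of the genes with many UMIs, with 39.6 CPM in tentacle, 34.4 in body wall, 33.9 in mesentery and 21.1 in pharynx (1.88 times, 1.31 to 2.70). RIR2_DANRE (NVE21390), the small subunit of ribonucleotide reductase, had 13.6 CPM in tentacle, 12.3 in pharynx, 12.2 in mesentery and 4.99 in body wall (2.72 times, 1.26 to 6.34). RIR2_DANRE (NVE21385), a copy with a nearby identifier, had 6.90 CPM in pharynx, 5.76 in mesentery, 5.42 in tentacle and 3.99 in body wall, which overlapped. The files hold 5 models of this name between NVE21385 and NVE21390, and reads that match several of them could be split between copies, so the values of each are uncertain. RIR1_HUMAN (NVE8178), the large subunit, had 7.05 CPM in tentacle, 4.36 in pharynx, 3.20 in mesentery and 0.998 in body wall.

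Of the cyclins and their kinases, CDK1_CARAU (NVE17817), the kinase that starts mitosis, had 16.3 CPM in tentacle, 8.35 in pharynx, 5.49 in body wall and 5.12 in mesentery (3.18 times, 1.42 to 8.03). Tentacle was 1.95 times pharynx (1.10 to 3.51) for it. Its 30 tentacle UMIs came from 13 cells, 1 of which held 11, and its 23 pharynx UMIs from 19 cells. The tentacle lead thus rested in part on 1 cell, and the interval does not cover such an uneven spread over cells. CKS1_MOUSE (NVE11822), a small protein that binds these kinases, had 20.6 CPM in tentacle, 18.5 in body wall, 13.1 in pharynx and 10.2 in mesentery (2.01 times, 1.10 to 3.87). Among barcodes with at least 500 UMIs its tentacle level was 1.05 times that of mesentery. CCNB_MARGL (NVE9767), cyclin B, ran the other way, with 6.49 CPM in body wall, 4.48 in mesentery, 2.90 in pharynx and 2.17 in tentacle, on 32 UMIs with intervals that overlapped. CDK2_HUMAN (NVE22861), a kinase of the replication phase, had 6.51 CPM in tentacle, 2.56 in mesentery, 2.18 in pharynx and 2.00 in body wall. The condensin cores SMC4_XENLA (NVE24422) and SMC2_XENLA (NVE8734) were both highest in tentacle and lowest in body wall. SMC4_XENLA had 15.7 CPM in tentacle, 14.9 in pharynx, 11.5 in mesentery and 5.99 in body wall (2.63 times, 1.30 to 5.65). SMC2_XENLA had 9.76 CPM in tentacle, 8.95 in mesentery, 7.98 in pharynx and 5.99 in body wall, within counting error. Of the other 3 genes of the group, TOP2B_HUMAN (NVE14904) had 20 UMIs and SMC4_XENLA (NVE15596) 13.

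The kinetochore and checkpoint genes ranged from flat levels to a wide gap between tissues. CENPE_HUMAN (NVE2099), named for a kinetochore motor, had 61.8 CPM in tentacle, 21.1 in pharynx, 10.5 in body wall and 7.67 in mesentery (8.06 times, 4.44 to 16.1). Another model of the same family, CENPE_MOUSE (NVE16653), had 12.5 CPM in body wall, 11.3 in pharynx, 9.59 in mesentery and 8.14 in tentacle, all within counting error. CENPF_HUMAN (NVE9959), a kinetochore protein of late division, was likewise flat, with 10.5 CPM in pharynx, 10.2 in mesentery, 8.68 in tentacle and 5.99 in body wall. CENPK_HUMAN (NVE6306), of the inner centromere network, had 18.9 CPM in pharynx, 17.3 in mesentery, 11.98 in body wall and 9.22 in tentacle (2.05 times, 1.16 to 3.78). CENPO_HUMAN (NVE24236), of the same network, had 7.98 CPM in body wall, 7.03 in mesentery, 6.90 in pharynx and 5.42 in tentacle. SPC25_RAT (NVE17668), of the NDC80 complex that holds microtubules, had 8.68 CPM in tentacle, 7.49 in body wall, 5.12 in mesentery and 5.08 in pharynx. Neither CENPO_HUMAN nor SPC25_RAT differed between tissues beyond counting error. BUB3_MOUSE (NVE18476), a checkpoint protein, had 10.8 CPM in tentacle, 10.5 in pharynx, 8.98 in body wall and 7.67 in mesentery, within counting error. Without the 5% of barcodes with the most UMIs its tentacle level was 5.82 times that of mesentery. CDC20_RAT (NVE16252), named for the activator that the checkpoint restrains, had 16.6 CPM in mesentery, 16.0 in pharynx, 9.76 in tentacle and 5.49 in body wall (3.03 times, 1.45 to 6.79). MD2L1_HUMAN (NVE11842), the checkpoint protein Mad2, had 9.76 CPM in tentacle, 5.44 in pharynx, 3.84 in mesentery and 2.50 in body wall, and CENPT_CHICK (NVE3917) had 8.35 CPM in pharynx, 6.40 in mesentery, 2.17 in tentacle and 2.00 in body wall. The other 20 members of the group had 0 to 30 UMIs.

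Mitotic kinases were dominated by PLK1_MOUSE (NVE11158), a model of the polo-like kinase family, with 46.7 CPM in tentacle (86 UMIs), 7.62 in pharynx (21 UMIs), 2.50 in body wall (5 UMIs) and 1.92 in mesentery (3 UMIs). Tentacle was 24.3 times mesentery (8.05 to 120) and 6.12 times pharynx (3.76 to 10.4), the widest gap among the 22 members that had UMIs in every tissue. The other model of that name, PLK1_MOUSE (NVE3288), had 7.59 CPM in tentacle, 5.81 in pharynx, 4.99 in body wall and 3.20 in mesentery on 45 UMIs, which overlapped. AURAA_XENLA (NVE7650), aurora kinase A, had 10 UMIs in all. Among the kinesins, KIF28_MOUSE (NVE7309) had the most UMIs of any member, 348, with 82.7 CPM in pharynx, 38.4 in mesentery, 16.3 in tentacle and 14.97 in body wall (5.53 times, 3.77 to 8.38). KIF25_HUMAN (NVE21557) had 19.96 CPM in pharynx, 11.5 in mesentery and 0 UMIs in both tentacle and body wall, so that pharynx was at least 12.3-fold higher than tentacle. Both were sorted by name into the families with main roles outside division, and that sorting was not tested. In cluster 1, described below, KIF25_HUMAN was 8.02 times as high as in other cells (4 UMIs, 2.13 to 21.5). KIF28_MOUSE (NVE7309) was 1.61 times as high there (4 UMIs, 0.436 to 4.16). A further model, KIF28_MOUSE (NVE20612), was flat at 9.76 CPM in tentacle, 9.44 in pharynx, 8.31 in mesentery and 6.99 in body wall. DLGP5_MOUSE (NVE7848), a protein of spindle microtubules near the chromosomes, had 21.1 CPM in pharynx, 13.4 in mesentery, 12.5 in body wall and 6.51 in tentacle (3.23 times, 1.72 to 6.62). KIF23_HUMAN (NVE12688), a kinesin that the last step of division needs, had 8.31 CPM in mesentery, 7.26 in pharynx, 4.34 in tentacle and 3.49 in body wall, and KIF28_MOUSE (NVE14891) had 28 UMIs, of which 19 were in pharynx. The other 6 kinesins had 0 to 16 UMIs.

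To see which cells held the members, all cells were clustered together with the member genes left out, giving 28 clusters, and the members were then summed per cluster. These values describe clusters and are not tests. Cluster 1 held 51 cells, 0.717% of all, but 389 member UMIs, 10.6% of all, at 6639 CPM (5996 to 7333). Its cells came as 27 from pharynx, 19 from body wall, 5 from mesentery and 0 from tentacle, and in each of the 3 tissues its member level was high, at 8539 CPM in pharynx, 8279.7 CPM in mesentery and 4923 CPM in body wall. The median cell of cluster 1 had 6 member UMIs and 5 different members out of 916 UMIs in all. Its extent depended on the clustering. When 44 cells with shared barcodes were left out, the corresponding cluster had 110 cells, 19 of them from tentacle, and 23.1% of the member UMIs. With the members kept among the clustering genes it had 128 cells, 22 of them from tentacle, and 27.7%. Without the 5% of cells with the most UMIs it had 93 cells and 16.5%, and among barcodes with at least 200 UMIs the leading cluster was a broader group of 346 cells at 1291 CPM. The absence of tentacle cells from cluster 1 is thus a feature of 1 clustering and not a count of dividing tentacle cells.

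**Figure D3:**
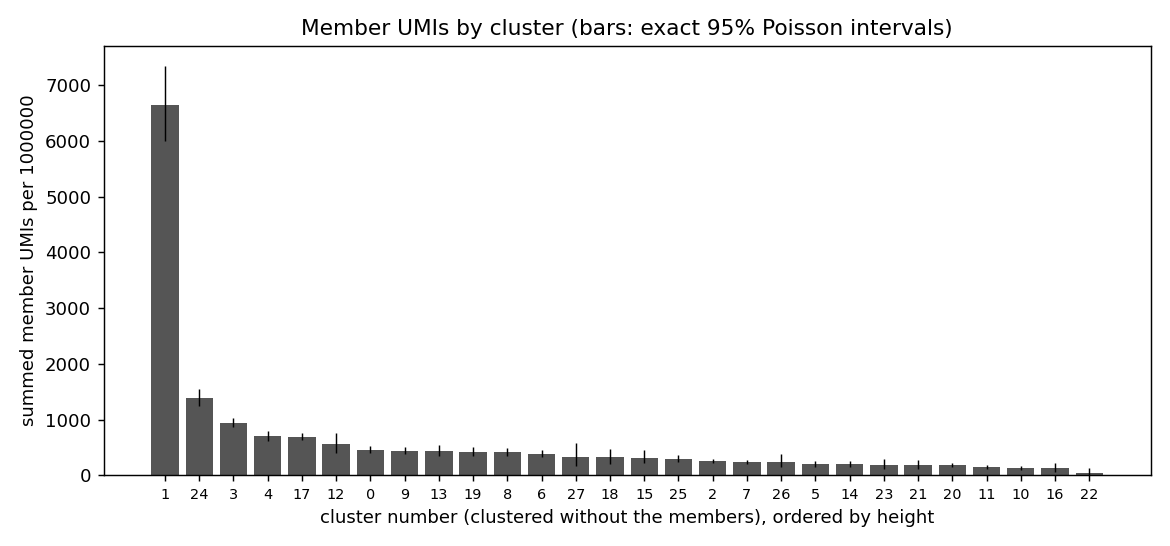
Summed member CPM (vertical axis, from 0) in each of the 28 clusters made without the member genes, in descending order, with exact 95% Poisson intervals. Cluster 1 stands at 6639 CPM, cluster 24 follows at 1390 CPM and cluster 3 at 943 CPM, and the next, cluster 4, lies at 699 CPM.

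In cluster 1, 14 of the 22 members with at least 50 UMIs were at least 2 times as high as in all other cells (63.6%, against 20.8% of all genes), and the median member differed by 2.20 on the log2 scale, against -0.55 for all genes. Cluster 1 was picked for its highest summed member CPM, so high members there follow in large part from that choice. The comparison with all genes is therefore a description and not a test. The members that stood highest were those of mitosis. DLGP5_MOUSE had 768 CPM in cluster 1 and 8.76 CPM in the other cells (87.7 times, 59.0 to 129), and CKS1_MOUSE had 802 and 9.87 CPM (81.3 times, 55.5 to 118). CENPF_HUMAN had 410 and 6.04 CPM (67.8 times, 39.8 to 113), CENPE_MOUSE 461 and 7.28 CPM (63.3 times, 38.6 to 101), and SPC25_RAT 256 and 4.69 CPM (54.6 times, 27.9 to 102). CDK1_CARAU stood at 324 CPM in cluster 1 against 6.54 CPM (49.6 times, 27.7 to 85.2), RIR2_DANRE (NVE21390) at 358 against 8.26 CPM (43.4 times, 25.2 to 71.7), SMC2_XENLA at 239 against 6.41 CPM (37.3 times, 19.1 to 68.2), SMC4_XENLA (NVE24422) at 324 against 9.99 CPM (32.5 times, 18.6 to 54.0) and CENPK_HUMAN at 239 against 13.1 CPM (18.3 times, 9.66 to 32.0). These 10 genes span the kinetochore, the spindle, condensin and the cyclin kinases, with 1 gene of nucleotide supply. Cyclin B, CCNB_MARGL, had 17 of its 32 UMIs there (157 times, 73.7 to 337).

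The roles differed in how far they stood above other cells. By role, cyclins and their kinases were 68.1 times as high there as in other cells (52.9 to 87.2), condensin and topoisomerase 34.8 times (23.97 to 49.5), kinetochore and checkpoint genes 19.3 times (15.9 to 23.1), mitotic kinases 16.5 times (9.70 to 26.7), kinesins and spindle genes 14.6 times (11.2 to 18.7) and nucleotide supply 8.71 times (5.57 to 13.1). Fork and polymerase genes had 6 UMIs there, 102 CPM in cluster 1 against 66.0 CPM in other cells (1.55 times, 0.567 to 3.40). PCNA_XENLA was 1.82 times as high (4 UMIs, 0.493 to 4.71) and TYSY_MOUSE 0.549 times (1 UMI, 0.0138 to 3.09). The 14 licensing and helicase genes had 0 UMIs in cluster 1, which at its 58592 UMIs allows up to 51.2 CPM, against 27.9 CPM in other cells, so a difference was not detectable at this depth. Of the 53 members with 1 to 49 UMIs, 28 had 0 UMIs in cluster 1, 10 had 1 or 2, and 15 had at least 3 there at 2 times or more the level of other cells. The share of all genes under that rule is not given, so these counts do not set the members apart from other genes.

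Genes outside the members describe cluster 1 further. Of its 15 leading genes by fold, 7 carry no name, 3 are members (DLGP5_MOUSE, CKS1_MOUSE and CENPE_MOUSE) and 5 are other named genes. These are ARMC1_HUMAN (NVE26039, 597 CPM in cluster 1 against 1.48 CPM in other cells), NAS6_CAEEL (NVE2077, 751 against 5.43 CPM), CKP2L_MOUSE (NVE11722, named for a spindle protein, 461 against 2.71 CPM), UBE2C_HUMAN (NVE5541, a ubiquitin-conjugating enzyme that works with CDC20, 375.5 against 2.71 CPM) and ODFP2_RAT (NVE2535, named for a centrosome and sperm tail protein, 529 against 8.88 CPM). A marker list of 25 cycling genes outside the members, 20 of them detected, summed to 1075 CPM in cluster 1, against 100.04 CPM over all cells. A list of 8 mucus gland genes stood at 1143.5 CPM in cluster 1, against 601 CPM over all cells, and its part in the member values was not tested. Stinging-cell genes had 0 UMIs there, and muscle (1229 CPM), digestive gland (546 CPM), neuron (461 CPM) and epidermis (512 CPM) lists stood beside 5483, 5526, 403 and 2801 CPM over all cells in the same order. The cluster met no marker rule for a cell type and is left unnamed.

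**Figure D4:**
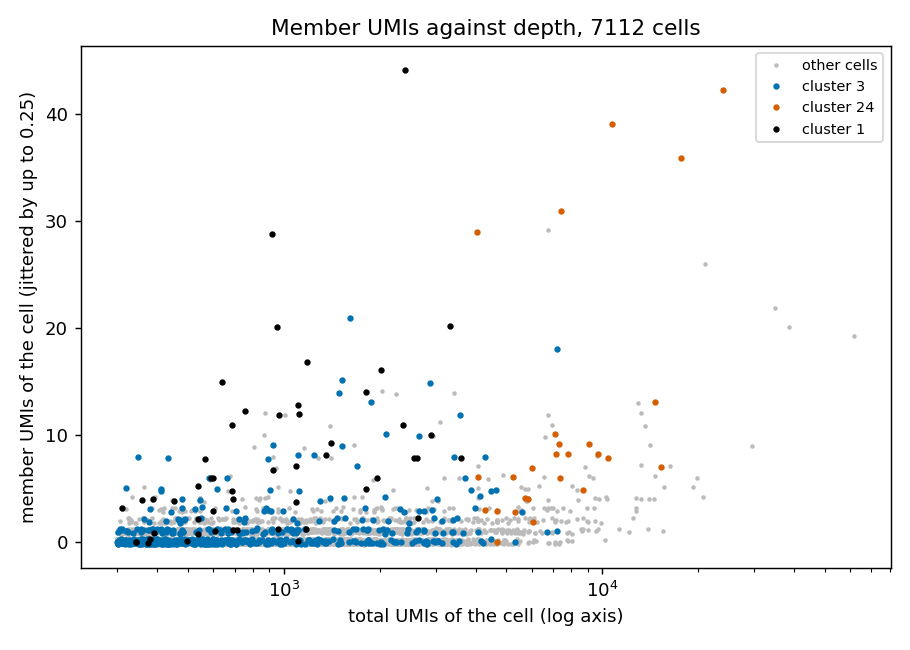
Member UMIs of each of the 7112 cells (vertical axis, jittered by up to 0.25) against the cell's total UMIs (log axis), with clusters 1, 3 and 24 coloured. Cells of cluster 1 hold many member UMIs at common depths, up to 44 of 2398, while those of cluster 24 have at least 4048 UMIs each.

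Tentacle cells with many members lay elsewhere, in cluster 3. This cluster of 531 cells, 467 of them from tentacle, was led by CSL3_ONCKE (NVE7724), a lectin name, and AVIL_HUMAN (NVE18027), an actin-binding protein name. It held 519 member UMIs at 943 CPM (863 to 1027), and 48.8% of all member UMIs of tentacle. The members were uneven within it. Of its cells 344 had none, and 23 cells, 22 of them from tentacle, had at least 5 different members. In those 22 tentacle cells the 12 named non-member leading genes of cluster 1, a list chosen from a cluster with no tentacle cell, summed to 712 CPM (480.5 to 1017), against 72.6 CPM (49.7 to 102) in the 445 other tentacle cells of cluster 3. Of the 22 cells, 14 held any of the 12 genes. Cluster 1 cells with at least 5 members had 5196 CPM of them (4510.5 to 5956). Over all cells, cluster 1 included, those with at least 5 members had 643 CPM and the rest 35.4 CPM. The 22 cells are a range cut from a count, with 9 more at 4 members, and they were deeper, with a median of 1501.5 against 571 UMIs, which CPM corrects for in level but not in the chance of reaching 5 members. Over the whole tentacle library the same 12 genes had 45.6 CPM, beside 66.5 CPM in mesentery, 87.5 CPM in pharynx and 87.8 CPM in body wall. By role, cluster 3 was 3.81 times other cells for condensin and topoisomerase (2.65 to 5.37), 3.80 times for cyclins and their kinases (2.83 to 5.03), 2.91 times for the fork (2.30 to 3.64), 2.37 times for the kinetochore (1.99 to 2.81) and 2.12 times for licensing (1.39 to 3.12). Nucleotide supply was 2.34 times (1.75 to 3.07). Kinesins and spindle genes at 1.30 times (0.982 to 1.68) and mitotic kinases at 0.566 times (0.224 to 1.19) had intervals that included 1. CDK1_CARAU had 27 of its 72 UMIs there, and PCNA_XENLA 65 of 308.

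In mesentery the members were concentrated in cluster 24. It had only 26 cells, 23 from mesentery and 3 from pharynx, yet 41.0% of all mesentery member UMIs, at 1390 CPM (1238 to 1554.5). Its cells were very deep, with a median of 7228 UMIs against 603 over all cells, and cells holding more than 1 cell's RNA were not called. Its leading genes included 2 histone H2A models (H2A_ACRFO, NVE8101 and NVE9327), histone H2B (H2B1_DANRE, NVE9469), BOLL_MACFA (NVE15333), a name of a germline RNA-binding protein, and PIWI1 (NVE242), a protein that guards the germline genome. Fork and polymerase genes were 7.01 times other cells (400 against 57.0 CPM, 5.51 to 8.83) and licensing genes 5.95 times (145 against 24.4 CPM, 3.96 to 8.68). In the other roles the ratios were lower: condensin and topoisomerase stood at 4.26 times (2.57 to 6.71), an interval overlapping that of licensing, nucleotide supply 3.16 times (2.16 to 4.50), kinetochore genes 2.73 times (2.13 to 3.45), cyclins and their kinases 2.61 times (1.57 to 4.10) and kinesins 1.78 times (1.22 to 2.51). The mitotic kinases had 1 UMI. DPOD3_MOUSE had 28 of its 136 UMIs there, PCNA_XENLA 46 of 308, and MCM4_XENTR 10 of 47. A list of 16 germline and stem cell genes stood at 254 CPM in cluster 24, against 38.8 CPM over all cells and 17.1 CPM in cluster 1. Without clusters 1 and 24 the member sum of mesentery was 276 CPM and not 446, and without the 5% of cells with the most UMIs it was 329 CPM.

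**Figure D5:**
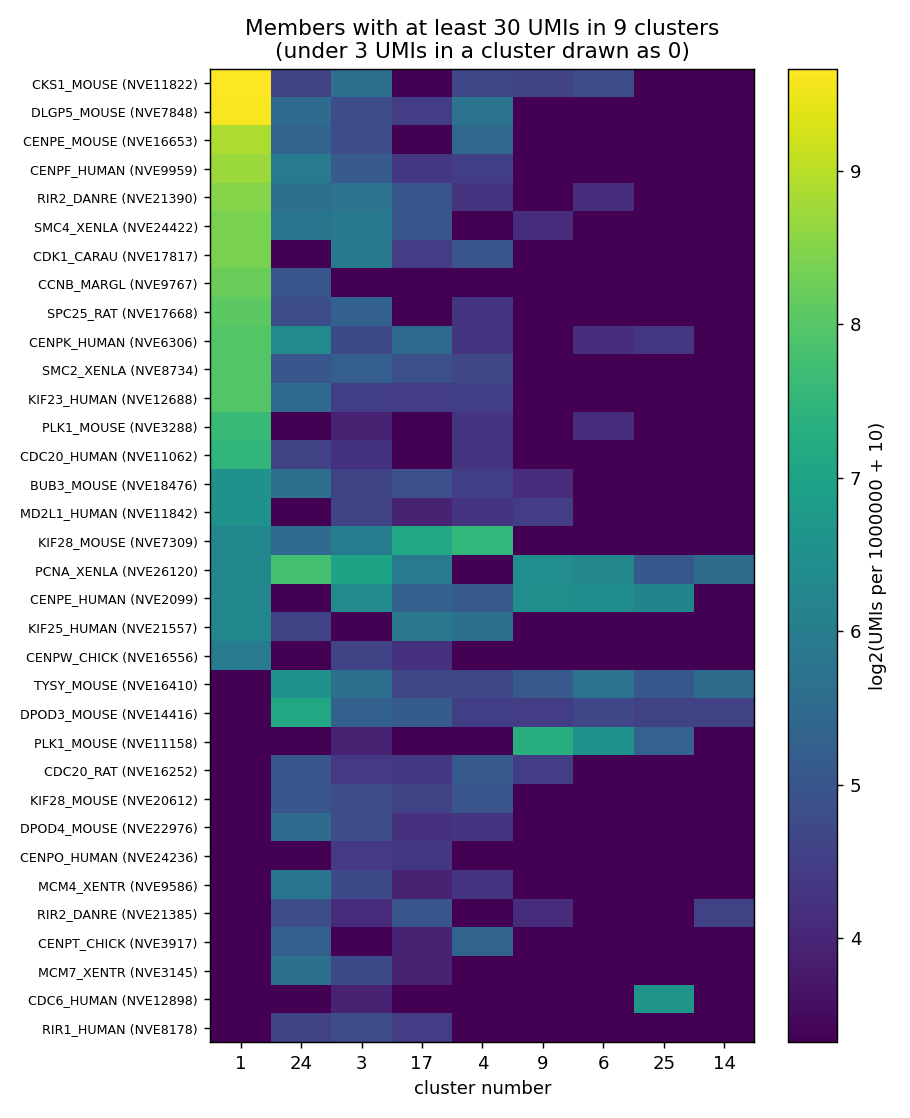
Members with at least 30 UMIs (rows, by their level in cluster 1) in 9 clusters (columns); colour is log2 of CPM plus 10, and fewer than 3 UMIs in a cluster is drawn as 0. The upper rows are bright in cluster 1, the replication genes PCNA_XENLA, DPOD3_MOUSE and MCM4_XENTR in cluster 24, and PLK1_MOUSE (NVE11158) in clusters 9 and 6.

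Some models that share a name or a family lay in different cells, and others did not. The 2 SMC4_XENLA models were both far above other cells in cluster 1, NVE24422 at 32.5 times and NVE15596 at 41.5 times (3 of 13 UMIs, 7.34 to 161). PLK1_MOUSE (NVE3288) was 44.8 times as high in cluster 1 as in other cells (11 of 45 UMIs, 20.5 to 90.5), while PLK1_MOUSE (NVE11158) had 1 UMI there (1.21 times, 0.0305 to 6.90). Of its 115 UMIs, 61 fell in cluster 9 and 33 in cluster 6. Cluster 9, with 138 of 144 cells from tentacle, was led by models without a name such as NVE18957, and it had 22.3 CPM of the 12 non-member genes that marked cluster 1. CENPE_MOUSE (NVE16653) was 63.3 times as high in cluster 1, and CENPE_HUMAN (NVE2099) 2.75 times (4 UMIs, 0.743 to 7.16), with its UMIs spread over cluster 3 (40), cluster 9 (32), cluster 6 (29) and cluster 25 (19). CDC20_HUMAN (NVE11062), singled out after its values were seen, was 69.2 times as high in cluster 1 (10 of 30 UMIs, 28.9 to 155), while CDC20_RAT (NVE16252), with 99 UMIs, was 1.41 times (1 UMI, 0.0354 to 8.05). A further CDC20_HUMAN model, NVE16251, has the identifier next to that of CDC20_RAT, so their counts are uncertain too. RIR2_DANRE (NVE21390) was 43.4 times and RIR2_DANRE (NVE21385) 3.08 times as high (1 UMI, 0.0762 to 18.0). In each of the PLK1, CENPE, CDC20 and RIR2 pairs, chosen after their values were seen, 1 model stood far above other cells in cluster 1, while the interval of the other included 1. KIF28_MOUSE (NVE7309) had its UMIs in clusters 17 (75), 0 (64), 4 (56) and 2 (44), of which clusters 17, 0 and 4 are mostly pharynx and cluster 2 mostly mesentery. Cluster 17, with 838 of its 911 cells from pharynx, held 400 member UMIs at 694 CPM (628 to 765), and 666 of its cells had none. Cluster 4 had 340 CPM of kinesins and spindle genes and was led by names of cilium and sperm tail proteins such as ODF3A_XENLA (NVE26201).

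Shared detection in single cells was looked at around CDK1_CARAU, a gene chosen after the data were seen. It had UMIs in 49 cells, 19 from pharynx, 13 from tentacle, 9 from body wall and 8 from mesentery, with 15 in cluster 1 and 11 in cluster 3. DLGP5_MOUSE was found in 38.8% of these cells (19 of 49, 25.2 to 53.8%), against 0.722% of the 7063 cells without it. For CENPE_MOUSE the shares were 36.7% and 0.680%, for RIR2_DANRE (NVE21390) 34.7% and 0.609%, for SMC4_XENLA 32.7% and 0.892%, and for CENPF_HUMAN 28.6% and 0.623%. PCNA_XENLA was found in 12.2% (4.63 to 24.8%) against 2.92%, and CENPE_HUMAN in 4.08% (0.498 to 13.98%) against 2.42%. PLK1_MOUSE (NVE11158) was in 0 of the 49 cells, which by the floor of 3 cells allows a share of up to 6.12% (exact upper bound 7.25%), against 0.878%. Cells with CDK1_CARAU were deeper, with a median of 954 against 601 UMIs. Within cells of 500 to 3000 UMIs, where the medians were 922 and 876, the shares were 45.2% (14 of 31) and 0.666% for DLGP5_MOUSE, 32.3% and 0.639% for CENPE_MOUSE and 0 of 31 cells (up to 9.68% by the floor, exact upper bound 11.2%) and 0.639% for PLK1_MOUSE (NVE11158).

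Over the 25 clusters with at least 50 cells, the genes outside the members whose level (log2 of CPM plus 10) followed that of the summed members most closely were CEP57_MOUSE (NVE23407, r = 0.84), HDAC8_HUMAN (NVE13661, 0.84), CDK1B_XENLA (NVE17818, 0.84), ODFP2_RAT (NVE2535, 0.83), CBX3_MOUSE (NVE13697, 0.81), WEE1_MOUSE (NVE17855, 0.81), PPM1K_BOVIN (NVE9490, 0.81), the unnamed NVE24472 (0.81), NAS6_CAEEL (NVE2077, 0.79), CE128_HUMAN (NVE19818, 0.79), IFT57_MOUSE (NVE18315, 0.78), CFA61_HUMAN (NVE4234, 0.78), SLBP1_XENLA (NVE16398, 0.78), the unnamed NVE20876 (0.78) and LAMA1_HUMAN (NVE14701, 0.78). These are Pearson correlations given as a description, and the 25 points share 4 libraries. Without cluster 1 they lay between 0.40 and 0.74. CDK1B_XENLA has the identifier next to that of CDK1_CARAU and a name of the same kinase, so reads of the pair could be split between them. WEE1 is known as the kinase that holds CDK1 inactive, and SLBP1 as a protein that binds histone messenger RNA.

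Other replication and division genes, a list of 102 models named for replication factors, cohesin, condensin subunits, cyclin D and regulators of mitosis, gave the tissues a different order. Of them 18 had 0 UMIs and 16 had at least 50, and 12 of these 16 were at least 2 times higher in the highest than in the lowest tissue (69.8% of all genes were). In pharynx 6 of the 16 were at least 2 times the mean of the other 3 tissues (12.1% of all genes were), in mesentery 1 (7.22%), in tentacle 0 (15.5%) and in body wall 0 (11.2%). At most 0.5 times that mean were 4 in tentacle (22.9% of all genes), 4 in mesentery (20.9%), 3 in body wall (26.9%) and 0 in pharynx (15.8%). CCND2_HUMAN (NVE21203), a cyclin D that links growth signals to the cell cycle, had 394 CPM in pharynx, 147 in mesentery, 86.8 in body wall and 70.5 in tentacle, on 1619 UMIs. With it the list summed to 804 CPM in pharynx, 521 in mesentery, 391 in tentacle and 376 in body wall, and without it to 410 in pharynx, 373 in mesentery, 320.1 in tentacle and 289 in body wall. Body wall was lowest here too, but its interval overlapped that of tentacle both times. With CCND2_HUMAN the intervals were 349 to 404 CPM in body wall and 363 to 420 CPM in tentacle. Without it they were 266 to 313 CPM and 295 to 347 CPM. ECT2_HUMAN (NVE15925), which positions the cleavage furrow, had 52.3 CPM in pharynx, 42.9 in body wall, 12.5 in tentacle and 4.48 in mesentery (11.7 times, 5.52 to 29.6). WEE1_MOUSE had 18.5 CPM in pharynx, 15.3 in mesentery, 9.22 in tentacle and 7.49 in body wall. SMC3_XENLA (NVE10205), a cohesin core, had 28.1 CPM in mesentery, 13.1 in pharynx, 10.8 in tentacle and 8.98 in body wall (3.13 times, 1.77 to 5.76), with 29 of 118 UMIs in cluster 24. SMC1A_HUMAN (NVE7998), its partner in cohesin, had 26.9 CPM in mesentery, 21.1 in pharynx, 13.97 in body wall and 12.5 in tentacle, with 37 of 151 UMIs there. Both models thus had their highest level in mesentery and their most UMIs in cluster 24, as did MCM4_XENTR and DPOD3_MOUSE. Fork and polymerase genes as a group were highest in tentacle. A further model not among the 10 with the most UMIs, SMC3_MOUSE (NVE10203), had 10.87 CPM in mesentery and 10.85 in tentacle. It had 5.81 CPM in pharynx and 5.49 in body wall (64 UMIs). Its identifier is close to that of SMC3_XENLA, so reads could be split between them. RFA3_MOUSE (NVE19068) and RFA2_MOUSE (NVE21410), subunits of the protein that covers single-stranded DNA, differed in their order of tissues. RFA3_MOUSE had 22.8 CPM in tentacle, 12.5 in body wall, 12.2 in mesentery and 10.2 in pharynx (2.24 times, 1.36 to 3.76). RFA2_MOUSE had 12.5 CPM in both tentacle and body wall, 10.2 in pharynx and 5.76 in mesentery (2.17 times, 0.966 to 5.32). The other 3 of the 10 with the most UMIs, TFDP1_HUMAN (NVE3107), UHRF1_DANRE (NVE24705) and CDT1_XENLA (NVE5564), differed by 1.80, 1.62 and 1.95 times between their highest and lowest tissues.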

How the data were processed

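The authors deposited count matrices of UMIs per gene and barcode, 7000 barcodes per library. Per the submitters' processing notes, Cell Ranger 2.1.0 made them, and the chemistry was version v2 per the labels' protocols. The build of the genome and the settings of the alignment were not given in the sources used here. Barcodes with at least 300 UMIs were kept as cells, and counts were summed per tissue or cluster and divided by the summed UMIs to give CPM, counts per 1000000 UMIs. The members and gene lists were chosen with earlier results of these data known. Members were found by name, and 0 of 90 matched the reference table, so no sequence or position is given. Named were all members with at least 50 UMIs, the next 2 of each role by UMIs, the 15 best correlated other genes, the 15 leading genes of the cluster with the highest member CPM and the 10 pathway genes with the most UMIs.

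For clustering, counts were scaled to 10000 per cell and logged, 2000 variable genes without the members gave 30 principal components, and a graph of 15 neighbours was cut by Leiden at resolution 1 (seed 1). A cluster was called X-like only if its 30 leading genes held at least 3 detected markers from at least 2 marker families. Doublets were not called. As an alternative the 5% of barcodes with the most UMIs were left out. Further alternatives changed the UMI minimum, the gene minimum, the fold, thinning, the CPM total, the members and the clustering. The calculations were tested on simulated data. Python 3.11.15, numpy 2.4.6, scipy 1.17.1, pandas 2.3.3, scanpy 1.11.5, anndata 0.12.19, igraph 0.11.9 and matplotlib 3.10.9 were used.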

Additional observations from a re-analysis of the deposited data

Results flagged for a closer look

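Member UMIs were also present in the barcodes with fewer than 300 UMIs, which were not used as cells. Tentacle had 450 such UMIs in 5701 barcodes (567 CPM), pharynx 350 in 4196 barcodes (470.3 CPM), body wall 245 in 5348 barcodes (301 CPM) and mesentery 217 in 5643 barcodes (227 CPM). These barcodes can hold small cells or free RNA, which was not tested.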

How the results depend on the processing

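No paired analysis was possible because each tissue has 1 library, which also leaves no replicate to leave out. Settings that remove the 4 named members or clusters, and the band of 500 to 3000 UMIs, were chosen after seeing the data. Body wall was lowest in the member sum under every setting run, but the order of the others changed: without the 4 members it was pharynx, mesentery, tentacle, and without the families outside division mesentery stood above pharynx. In the cell shares mesentery stood above body wall at 500 UMIs or more and after thinning. The member sum (536.5 CPM in tentacle, 446 in mesentery, 501 in pharynx and 299 in body wall) moved beyond its interval as follows. Without the 5% of barcodes with the most UMIs it was 589.2 in tentacle, 329.0 in mesentery and 582.7 in pharynx. Without the 50 most abundant genes in the total it was 731.8 in tentacle, 653.9 in mesentery, 726.3 in pharynx and 439.9 in body wall. Without the member with the most UMIs it was 408.0 in mesentery and 418.5 in pharynx, and without the families outside division 498.5 in tentacle, 381.1 in mesentery, 376.4 in pharynx and 270.0 in body wall. With all 7000 barcodes mesentery had 363.4. Without the 4 members the sums were 338.5 in tentacle, 360.0 in mesentery, 364.7 in pharynx and 249.0 in body wall. Without cluster 1 they were 431.3 in pharynx and 227.5 in body wall, and without clusters 1 and 24, 276.4 in mesentery, 427.2 in pharynx and 227.5 in body wall.

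The share of cells with a member UMI was 27.13% in tentacle, 12.77% in mesentery, 20.22% in pharynx and 14.89% in body wall at 200 UMIs or more, and 42.96%, 26.48%, 31.52% and 24.88% in the same order at 500 or more. Thinned to 300 UMIs it was 14.7%, 8.032%, 12.05% and 7.869%, and thinned to 500 UMIs 21.12%, 14.25%, 18.78% and 10.38%. Without the families outside division it was 31.49%, 14.22%, 17.12% and 17.01%. Without the deepest 5% it was 32.01% in tentacle and 15.21% in mesentery, and without the top member 15.99% in mesentery and 19.9% in pharynx. With a minimum of 20 UMIs, 30 of 41 members differed at least 2-fold between highest and lowest tissue (74.7% of all genes), and 25 passed against the mean of the others (63.4%). That count was 7 of 10 at a minimum of 100 UMIs and 5 of 22 at 3-fold (37.2%). The 7 of 10 is given without the share of all genes and is not read as a result about the members. At 500 UMIs per barcode, 13 of 22 members kept their highest tissue. The share of member UMIs in the leading cluster, 10.6%, was 12.44% at Leiden resolution 0.5, 27.65% with members kept, 7.416% at 200 UMIs, 12.97% at 500 UMIs, 16.54% without the deepest 5% and 23.05% without shared barcodes. The causes were not tested. The total without the 50 most abundant genes leaves that share as it is and gave no value of its own.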
